A study of Mus musculus with 4 samples.

Results

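The genes described here are 10 markers of embryonic macrophages, chosen by gene name. They are Csf1r and Cx3cr1 (receptors for a growth factor and a chemokine), Mrc1, Adgre1 and Cd68 (surface and endosomal proteins), Tyrobp and Fcer1g (ITAM adaptors), Ptprc and Aif1 (signalling and cytoskeleton) and F13a1 (a transglutaminase). All 10 were found among the 45706 genes of the count table, and all 10 passed the filter on low counts. Macrophages settle in the mouse heart before birth, at first from precursors made in the yolk sac, and engulf dead cells and matrix. Their survival depends on the receptor CSF1R, and many of their surface receptors signal through small adaptor proteins with an ITAM, a tyrosine motif that recruits the kinase SYK.

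The tissue was the outflow tract, through which blood leaves the embryonic heart, from C57BL/6 embryos at embryonic day 12.5, and its RNA was sequenced. The 2 WT libraries came from wild-type embryos and the 2 Sox17eKO libraries from embryos in which a Cre recombinase under an Nfatc1 enhancer removed Sox17 from the endothelium of the aortic root. Each library was 1 pool of 10 hearts, so a value is an average over embryos and over all cell types of the tissue, and the p-values rest on 2 pools per genotype. Macrophages were not sorted, so their genes were read within whole tissue. The stated purpose of the series was to find genes that SOX17 controls. Reads in genes ranged from 8113463 in WT replicate 2 to 21883956 in Sox17eKO replicate 2. Sox17 itself was at 6.44 ± 0.553 CPM in WT and 2.79 ± 0.0436 CPM in Sox17eKO (CPM, read counts scaled to a common library size with TMM factors; mean ± SD, n = 2), lower in both Sox17eKO pools (log2 fold change -1.19, edgeR adjusted p = 0.00574). Without WT replicate 2, the shallowest library, its edgeR adjusted p was 0.0519.

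None of the 10 macrophage genes passed the test for a difference between WT and Sox17eKO. With p-values from the edgeR quasi-likelihood fit adjusted over 16570 genes (Benjamini-Hochberg), 0 of 10 passed 0.05, while 5.35% of all genes tested did. At an unadjusted p under 0.05 the count was also 0 of 10, against 20.9% of all genes tested. Neither limma-voom nor DESeq2 called any, although DESeq2 gave an adjusted p for 1 of the 10 and withheld it for the other 9. The fitted level was higher in Sox17eKO for 5 genes and lower for 5, with a median log2 fold change of -0.02 beside -0.01 over all genes tested. The log2 fold changes ran from -0.34 (Fcer1g) to 0.15 (Cd68).

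**Figure D1:**
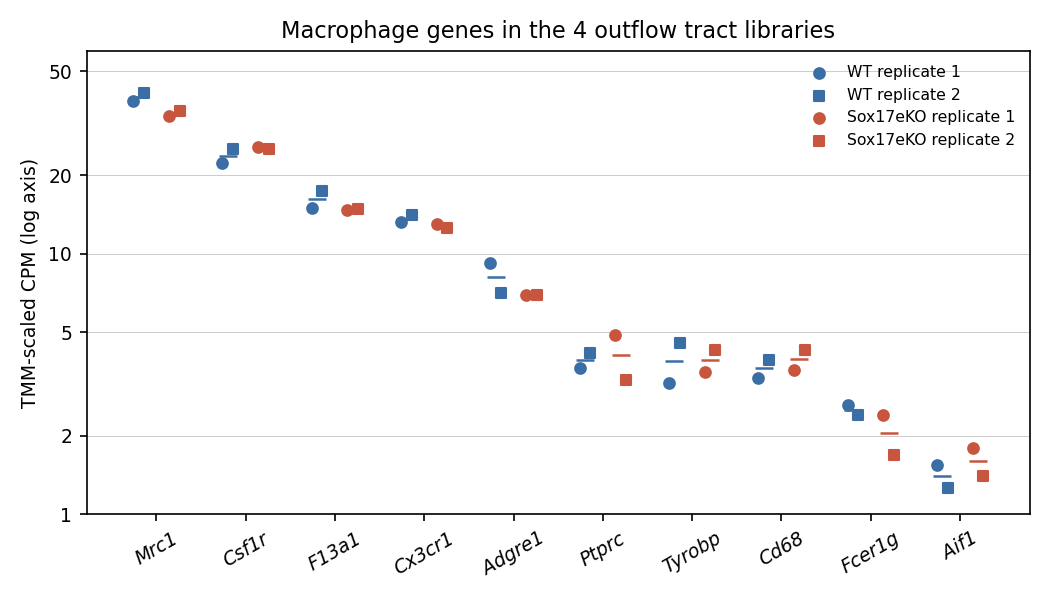
TMM-scaled CPM (log axis) of the 10 macrophage genes in each of the 4 libraries, with circles for replicate 1, squares for replicate 2 and a bar at the mean of each genotype. Mrc1 is highest, from 33.8 to 41.2 CPM, and Aif1 lowest, from 1.27 to 1.79 CPM, and the genotypes overlap for 6 of the 10 genes.

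Summed over the 10 genes, the libraries held 1448 and 960 reads in WT and 1601 and 2412 in Sox17eKO. That is a summed level of 112 CPM in WT replicate 1 (95% counting interval 107 to 118), 121 in WT replicate 2 (114 to 129), 110.4 in Sox17eKO replicate 1 (105 to 116) and 109.7 in Sox17eKO replicate 2 (105 to 114). These intervals are exact Poisson intervals and cover counting error only. The group means were 117 ± 6.47 CPM in WT and 110.1 ± 0.492 CPM in Sox17eKO (SD, n = 2). The sum was lower in both Sox17eKO pools than in both WT pools, and the distance from Sox17eKO replicate 1 to WT replicate 1 was smaller than the distance between the WT pools. No test was run on the sum. In whole tissue, a change in the number of macrophages and one in macrophage RNA per cell cannot be told apart.

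Myeloid genes are known for promoters that bind PU.1, the ETS factor encoded by Spi1, whose site has the letters GGAAGT at its core. RefSeq promoter windows on GRCm38.p6 were used for 7 of the 10 genes (Aif1, Cd68, Cx3cr1, F13a1, Fcer1g, Mrc1 and Ptprc), with 2 alternative starts each for F13a1 and Ptprc. Csf1r, Adgre1 and Tyrobp were left out of the counts of matches, which therefore do not describe the full set of 10 genes. In a stretch from 120 bases before to 30 bases after the annotated start, GGAAGT on either strand was found for 3 of the 7 genes, and for 16.6% of 27025 genes with such windows. GAGGAA, the other overlapping part of the site, was found for 3 of the 7 (Aif1, F13a1 and Mrc1) and for 16.8% of all genes. The longer form GAGGAAGT, which contains both, was found for F13a1 alone of the 7 and for 2.01% of all genes. The 3 windows with a match are shown because they carry the letters that these genes have in common, with the core in capitals (ACTTCC is the core on the other strand). A match is a run of letters and was not tested for binding.
Cd68: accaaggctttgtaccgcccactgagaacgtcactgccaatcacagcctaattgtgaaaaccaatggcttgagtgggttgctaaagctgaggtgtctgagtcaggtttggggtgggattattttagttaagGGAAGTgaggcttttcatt
F13a1: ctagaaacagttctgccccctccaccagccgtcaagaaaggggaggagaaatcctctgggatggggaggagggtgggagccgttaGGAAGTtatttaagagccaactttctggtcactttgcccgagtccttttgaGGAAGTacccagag
Ptprc: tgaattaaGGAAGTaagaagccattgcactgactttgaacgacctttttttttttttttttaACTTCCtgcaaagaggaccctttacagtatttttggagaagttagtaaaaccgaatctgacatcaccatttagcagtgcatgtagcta
These windows lie on the minus strand at chr11:69666141-69666290 (Cd68), chr13:37049184-37049333 (F13a1, the start further inside the gene) and chr1:138175276-138175425 (Ptprc, the outer start).

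Csf1r, the receptor for the growth factors CSF1 and IL-34, was the second most abundant of the genes by reads. Its gene spans chromosome 18, 61100598 to 61132149 (ENSMUSG00000024621, mm10, plus strand), and 873 bases of its exons overlap exons of Hmgxb3 on the opposite strand. Its level was 22.2 and 25.3 CPM in WT replicates 1 and 2, and 25.7 and 25.3 CPM in Sox17eKO replicates 1 and 2. The pools of the genotypes overlapped, and WT replicate 1 was the lowest of the 4. The fitted log2 fold change was 0.11 with a 95% interval of -0.13 to 0.35 (edgeR adjusted p = 0.637), so the interval for the Sox17eKO level ran from 91.4% to 127% of WT.

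Cx3cr1, the receptor for the membrane-bound chemokine CX3CL1 (ENSMUSG00000052336, chromosome 9, 119901616 to 120069879, minus strand), was at 13.19 and 14.04 CPM in WT and at 13.03 and 12.51 CPM in Sox17eKO, in replicate order. Both Sox17eKO pools were below both WT pools, by less than the distance between the WT pools for Sox17eKO replicate 1. Its log2 fold change was -0.09 with an interval of -0.37 to 0.19 (edgeR adjusted p = 0.767). An antisense gene, Gm33858, shares 78 bases of exon with it on the opposite strand.

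The ligands of these receptors were not called either. Csf1 was at 22.5 and 23.3 CPM in WT and 18.1 and 16.5 CPM in Sox17eKO. Both Sox17eKO pools were lower, and the log2 fold change was -0.41 with an interval of -0.66 to -0.15 (edgeR adjusted p = 0.0558). It was past the threshold with no filter on low counts (edgeR adjusted p = 0.0434), with replicate number as a block (0.0315) and, just, among protein-coding genes only. Over 13 alternatives its log2 fold change ran from -0.47 to -0.33. Without WT replicate 2 and without Sox17eKO replicate 2 the edgeR adjusted p was 0.218 and 0.245. Il34 had 0 reads in both WT libraries and 2 in each Sox17eKO library, too few for a comparison. Cx3cl1, chosen after its values were seen, was at 4.42 ± 1.09 CPM in WT and 4.70 ± 0.084 CPM in Sox17eKO (mean ± SD, n = 2; edgeR adjusted p = 0.818).

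Mrc1, the mannose receptor of endocytic macrophages and also of lymphatic and sinusoidal endothelium, was the most abundant of the genes and gave 30.6% to 34.2% of their reads in each library. Its gene spans chromosome 2, 14229392 to 14332057 (ENSMUSG00000026712, plus strand). Its level was 38.4 and 41.2 CPM in WT and 33.8 and 35.2 CPM in Sox17eKO. Both Sox17eKO pools lay below both WT pools, and Mrc1 had the smallest p of the 10 genes. The log2 fold change was -0.20 with an interval of -0.41 to 0.0012 (edgeR adjusted p = 0.242), a fitted level of 86.9% of WT. Over 14 alternatives it stayed between -0.26 and -0.15, and the smallest edgeR adjusted p was 0.175. Of the lymphatic and sinusoidal markers measured beside it, chosen after their values were seen, none was called. Lyve1 was at 8.56 ± 1.14 CPM in WT and 7.05 ± 0.0694 CPM in Sox17eKO, and Prox1, a lymphatic factor also made in heart muscle, at 47.9 ± 3.53 and 56.5 ± 11.1 CPM (edgeR adjusted p = 0.42 and 0.28). Stab1, of sinusoids and macrophages, was at 88.7 ± 5.88 and 89.6 ± 11.9 CPM, and Stab2, of sinusoids, at 0.947 ± 0.0868 and 0.961 ± 0.201 CPM (mean ± SD, n = 2; edgeR adjusted p = 0.925 and 0.981). Lyve1 was lower in both Sox17eKO pools, and the pools overlapped for the other 3. Their part in the Mrc1 value was not tested.

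Adgre1, which encodes the adhesion receptor F4/80 (ENSMUSG00000004730, chromosome 17, 57358691 to 57483527, plus strand), was at 9.23 and 7.08 CPM in WT and at 6.96 and 6.91 CPM in Sox17eKO. WT replicate 1 stood above the other 3 pools, which lay close together. The log2 fold change was -0.26, interval -0.64 to 0.12 (edgeR adjusted p = 0.439). Leaving out WT replicate 1 gave -0.03, and leaving out WT replicate 2 gave -0.41. Cd68, a glycoprotein of late endosomes and lysosomes (ENSMUSG00000018774, chromosome 11, 69664213 to 69666153, minus strand), had few reads. Its 43 and 31 reads in WT and 52 and 94 in Sox17eKO gave 3.34, 3.92, 3.59 and 4.28 CPM. The pools overlapped, and the interval of the log2 fold change ran from -0.39 to 0.68 (edgeR adjusted p = 0.801).

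The adaptors Tyrobp and Fcer1g pair with activating receptors, TYROBP with TREM2 among others and the FCER1G gamma chain with Fc receptors. Tyrobp (ENSMUSG00000030579, chromosome 7, 30413760 to 30417585, plus strand) was at 3.18 and 4.55 CPM in WT and 3.52 and 4.28 CPM in Sox17eKO. Replicate 1 was the lower pool in both genotypes, and the means of 3.87 ± 0.972 and 3.90 ± 0.536 CPM (SD, n = 2) differed by less than the pools of 1 genotype. Fcer1g (ENSMUSG00000058715, chromosome 1, 171229572 to 171234365, minus strand) was at 2.64 and 2.40 CPM in WT and 2.41 and 1.68 CPM in Sox17eKO. Sox17eKO replicate 2 was the low pool and Sox17eKO replicate 1 lay between the WT pools. The log2 fold changes were 0.06 (interval -0.49 to 0.62) for Tyrobp and -0.34 (interval -1.02 to 0.34) for Fcer1g, with edgeR adjusted p = 0.924 and 0.594. Fcer1g is the 1 gene of the 10 whose interval reached a 2-fold difference.

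A pair of receptors that use these adaptors, chosen after their values were seen, were not called either. Trem2 was at 2.11 ± 0.239 CPM in WT and 2.28 ± 0.583 CPM in Sox17eKO (edgeR adjusted p = 0.901). Fcgr3, a low-affinity IgG receptor, was at 4.86 ± 0.288 CPM in WT and 4.21 ± 0.678 CPM in Sox17eKO (edgeR adjusted p = 0.652; all mean ± SD, n = 2).

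Ptprc, the CD45 phosphatase of white blood cells (ENSMUSG00000026395, chromosome 1, 138062861 to 138175708, minus strand), was at 3.65 and 4.17 CPM in WT and at 4.90 and 3.27 CPM in Sox17eKO. The 2 Sox17eKO pools enclosed both WT pools. After TMM scaling, the ratio of Sox17eKO replicate 2 to replicate 1 was 0.669 (95% exact binomial interval 0.475 to 0.942). Of the 20 pool pairs (10 genes in 2 genotypes), this was the only one whose interval left out 1, and the ratios ran from 0.669 to 1.43. These intervals cover counting error only, not the spread between separate pools, and with this many 95% intervals about 1 leaves out 1 by counting error alone. Its log2 fold change was 0.05 with an interval of -0.51 to 0.61 (edgeR adjusted p = 0.943). Leaving out Sox17eKO replicate 2 gave 0.34, and leaving out Sox17eKO replicate 1 gave -0.24.

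Aif1, which encodes the actin-binding protein IBA1 (ENSMUSG00000024397, chromosome 17, 35170991 to 35176068, minus strand), rested on the fewest reads. It had 20 and 10 reads in WT and 26 and 31 in Sox17eKO, or 1.55, 1.27, 1.79 and 1.41 CPM. The pools of the genotypes overlapped. With so few reads the interval was wide, from -0.65 to 0.93 around a fitted value of 0.14 for the log2 fold change (edgeR adjusted p = 0.879). F13a1, the A subunit of coagulation factor XIII, is made by resident macrophages and by megakaryocytes (ENSMUSG00000039109, chromosome 13, 36867178 to 37050244, minus strand). It was at 15.0 and 17.5 CPM in WT and 14.8 and 14.9 CPM in Sox17eKO. The Sox17eKO pools lay just below WT replicate 1, and the log2 fold change of -0.12 had an interval of -0.39 to 0.16 (edgeR adjusted p = 0.66). The antisense gene Gm30489 shares 74 bases of its exons.

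**Figure D2:**
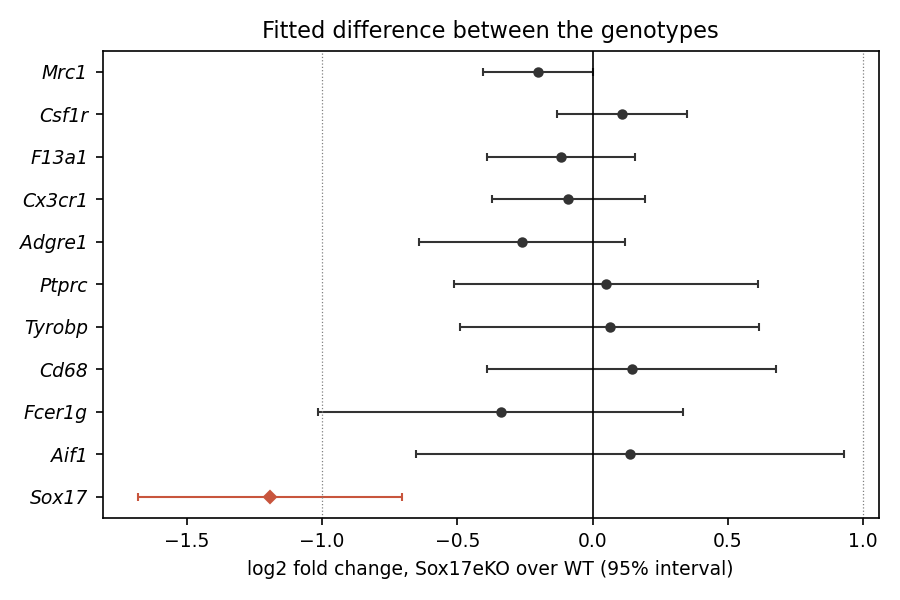
Fitted log2 fold change of Sox17eKO over WT with its 95% interval for the 10 macrophage genes and, as the check of the genotype, for Sox17 (diamond). Dotted lines mark a 2-fold difference. Every macrophage interval reaches 0, and that of Mrc1 ends at 0.0012, whereas the interval of Sox17 runs from -1.68 to -0.70.

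Across the 10 genes, both Sox17eKO pools were below both WT pools for 4 (Cx3cr1, Mrc1, Adgre1 and F13a1), and above for none. Over all genes tested, 52.8% had pools that did not overlap, 26.2% with both Sox17eKO pools below. The 95% interval stayed inside a 2-fold difference for 9 of the 10 genes and inside a 1.5-fold difference for 4 (Csf1r, Cx3cr1, Mrc1 and F13a1, which had the most reads). Smaller differences than these intervals allow were not detectable at this depth and number of pools. No alternative setting brought any of the 10 past the threshold. The sign of the difference turned in at least 1 alternative for Tyrobp, Ptprc and Aif1.

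Levels of different genes were compared as CPM per kilobase of annotated exons. In WT, Mrc1 was first with 6.25 ± 0.316 CPM per kb, followed by Tyrobp with 5.80 ± 1.46 and Csf1r with 4.11 ± 0.382 (mean ± SD, n = 2). These neighbours did not differ by more than the sum of their SDs. Below a gap larger than that came Cx3cr1 (3.02 ± 0.135), Cd68 (2.89 ± 0.33), Fcer1g (2.88 ± 0.189), Adgre1 (2.52 ± 0.468) and F13a1 (2.41 ± 0.261), again with no neighbours apart by more than their SDs. Aif1 (0.919 ± 0.132) and Ptprc (0.214 ± 0.0204) were each lower by more than the spread. Per kilobase of the longest annotated transcript, Ptprc was at 0.681 and F13a1 at 4.10 CPM per kb, since the annotated exons of both sum to far more than any 1 transcript, and F13a1 then came next after Csf1r.

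**Figure D3:**
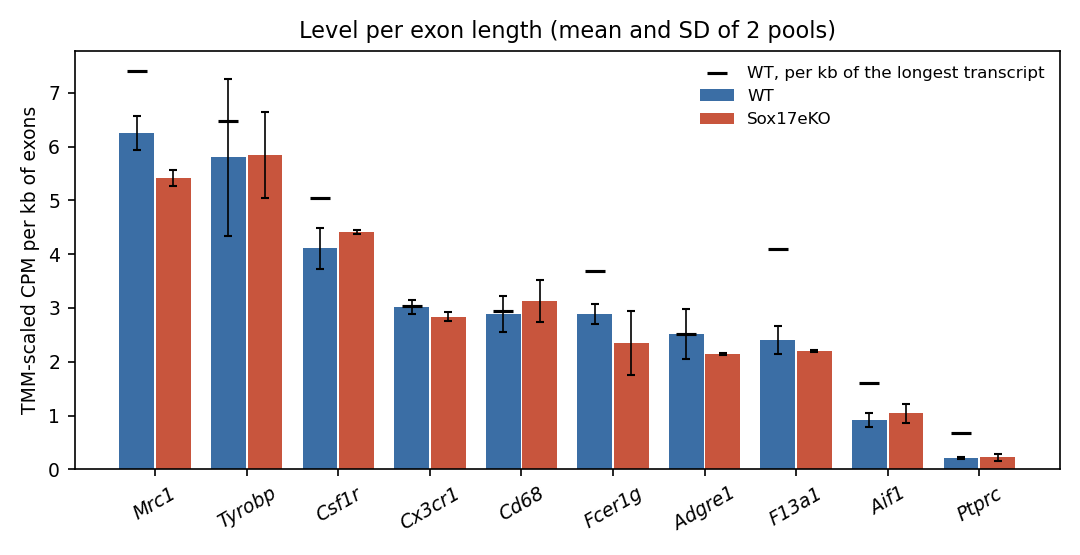
Level of each gene as TMM-scaled CPM per kb of annotated exons (bars, mean; error bars, SD of the 2 pools; both genotypes), with dashes for the WT mean per kb of the longest annotated transcript. Tyrobp, with few reads but a short transcript, stands beside Mrc1, at 5.80 and 6.25 CPM per kb in WT.

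The share that each gene took of the summed reads was compared between libraries. F13a1 took 13.3% to 14.4%, Cx3cr1 11.4% to 11.8% and Adgre1 5.83% to 8.22%. Csf1r took 19.8% and 20.8% in WT and 23.2% and 23.1% in Sox17eKO, in replicate order. Mrc1 took 34.2% and 34.0% in WT and 30.6% and 32.1% in Sox17eKO. Shares of 1 sum depend on each other, and their difference between the genotypes was not tested. The other 5 genes each took between 1.04% (Aif1, lowest library) and 4.43% (Ptprc, highest library).

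The wider macrophage programme was followed in 129 other genes in 8 lists, of which 91 could be tested. Vcan was the 1 gene that rose and 0 fell, beside 4.13% and 1.22% of all genes tested, and the median log2 fold change was -0.08, beside -0.01 over all genes tested. DESeq2 called 0 of these genes and limma-voom called Vcan alone. DESeq2 gave no adjusted p for some of them, among them Csf1, Lyz1 and Spi1, so its count does not cover all genes tested. Vcan encodes versican, a matrix proteoglycan of the cushion mesenchyme, listed here because monocytes also make it. It went from 1671 ± 304 to 2398 ± 130 CPM (log2 fold change 0.52, edgeR adjusted p = 0.0106), and the call ended without WT replicate 2 (0.0882) and with a trend on exonic length removed (0.0746). The most abundant gene of each list is in most cases also made by mesenchyme, endothelium or muscle, so these levels do not belong to macrophages alone.

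Of 15 myeloid transcription factor genes, 14 were tested and edgeR called 0 (3 at an unadjusted p under 0.05: Id3, Zeb2 and Nfe2). The highest per length were Id3, Zeb2 and Cebpb, with log2 fold changes of -0.19, 0.24 and -0.27 (edgeR adjusted p = 0.158, 0.0785 and 0.459). With a replicate block Zeb2 was called higher (edgeR adjusted p = 0.0254), and Id3 and Zeb2 are widely expressed outside macrophages. Of the factors that mark the myeloid lineage, chosen after their values were seen, Spi1 (PU.1) was at 2.31 ± 0.851 CPM in WT and 1.82 ± 0.132 CPM in Sox17eKO, and Irf8 at 6.04 ± 0.758 and 6.83 ± 0.779 CPM (mean ± SD, n = 2; edgeR adjusted p = 0.713 and 0.642). Of the growth factor and receptor list, 0 of 5 tested genes were called (Csf1 alone at an unadjusted p under 0.05), with log2 fold changes of 0.05 for Tgfbr1 and -0.01 for Csf2ra beside that of Csf1 given above.

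Among 16 markers of yolk sac derived and resident macrophages, 0 of 11 tested were called (Selenop alone at an unadjusted p under 0.05), and 9 of the 11 had a lower fitted level in Sox17eKO. Their median log2 fold change was -0.17, beside -0.01 over all genes tested. The summed level of the 16 markers was 511 ± 4.50 CPM in WT and 512 ± 33.6 CPM in Sox17eKO (mean ± SD, n = 2). Igf1, the largest part of this sum, was at 177 ± 18.2 CPM in WT and 198 ± 5.10 CPM in Sox17eKO. The sum therefore mostly follows a few abundant genes and does not describe the 16 markers alike. The highest per length, Gas6, Selenop and Igf1, are secreted proteins also made by mesenchyme, with log2 fold changes of -0.03, -0.17 and 0.16 (edgeR adjusted p = 0.912, 0.233 and 0.288). Some markers of resident macrophages in the adult heart, chosen after their values were seen, had very few reads. Cd163 had 1, 0, 0 and 1 reads, Timd4 2, 0, 1 and 6 and Folr2 9, 7, 4 and 10, in the order WT replicates 1 and 2 and Sox17eKO replicates 1 and 2.

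Of 12 markers of monocytes and recruited macrophages, 6 were tested, edgeR called Vcan alone, and 3 (Vcan, Lyz1 and Lyz2) had an unadjusted p under 0.05. Plac8 and Itgam, both also made by other myeloid cells, were at 1.94 ± 0.115 and 2.18 ± 0.672 CPM in WT and 1.78 ± 0.0135 and 2.30 ± 0.163 CPM in Sox17eKO (mean ± SD, n = 2; edgeR adjusted p = 0.89 and 0.878). The other 6 were under the filter. Ly6c2 and Chil3 had 0 reads in all 4 libraries, which allows up to 0.38 CPM in the shallowest library and 0.136 CPM in the deepest. These bounds hold for uniquely placed reads only, so reads shared with a related gene would be missed. Ccr2, the receptor of recruited monocytes, had 2 and 3 reads in WT and 8 and 12 in Sox17eKO, too few to pass the filter. Lyz2, a lysozyme of macrophages and neutrophils, was at 28.3 ± 1.02 CPM in WT and 23.6 ± 1.23 CPM in Sox17eKO (log2 fold change -0.26, edgeR adjusted p = 0.182), and Fn1, a matrix protein of many cells, differed by 0.08 on the log2 scale (edgeR adjusted p = 0.628). Lyz1, a close copy of Lyz2 and chosen after its values were seen, was at 8.74 ± 0.518 and 5.69 ± 0.528 CPM (log2 fold change -0.62, edgeR adjusted p = 0.0542). It was called lower with no filter on low counts (edgeR adjusted p = 0.0323), with a replicate block (0.033) and among protein-coding genes only (0.0483), and over its alternatives the adjusted p reached 0.264. Reads shared between these copies leave both levels uncertain.

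None of the 17 tested genes for phagocytic receptors and lysosomal proteins was called, and 0 had an unadjusted edgeR p under 0.05. The highest, Ctsd, Lamp1 and Ctsb, had log2 fold changes of -0.08, -0.16 and -0.08. Of the Fc receptor, integrin and ITAM signalling list, 0 of 24 tested genes were called and 1, Cyba, had an unadjusted edgeR p under 0.05. Its highest were Cyba, a subunit of the phagocyte oxidase (-0.27), Arhgdib, expressed in blood cells and endothelium (-0.18), and Lyn, a kinase that phosphorylates ITAMs (0.05). In the microglia list 0 of 7 were called, with Olfml3 at -0.11, Tmem119 at -0.14 and Sall1 at 0.07, and in the chemokine and cytokine list 0 of 9, with Vegfa at 0.18, Ccl2 at 0.18 and Cxcl16 at 0.02 (log2 fold changes). Il6 and Il10 had 0 reads in every library. At an unadjusted p under 0.05 the microglia list held 0 and the chemokine and cytokine list 1 (Tgfb1).

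Some of the 10 genes are shared with other blood cells, so markers of those cells were counted beside them. T and NK cell genes were at or near 0, with Cd3e, Cd4 and Ncr1 at 0 reads in all libraries and Cd8a at 1 in each. Lck, which had 14 to 39 reads, was the exception. B cell genes summed to 0.138 to 0.506 CPM, led by Cd79b and Pax5 with at most 5 and 2 reads. Of the mast cell genes, Fcer1a and Tpsb2 had 0 reads, Mcpt4 had 2 to 12, and Kit, which other cells of the tissue also express, was at 19.2 ± 0.649 CPM in WT and 18.9 ± 3.16 CPM in Sox17eKO (mean ± SD, n = 2). Dendritic cell genes other than Zbtb46, which endothelium also expresses, and H2-Ab1 were under 2 CPM, and Cd209a had 0 reads. Zbtb46 and H2-Ab1 had log2 fold changes of 0.33 and -0.76 (edgeR adjusted p = 0.0882 and 0.0868). Clec9a, the third dendritic cell gene tested, rested on 4 to 25 reads (log2 fold change 1.22, edgeR adjusted p = 0.154), and all 3 had an unadjusted p under 0.05. The WT reads of Clec9a alone would not have passed the filter on low counts, so its p is not a fair test of a difference.

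Megakaryocytes and platelets share F13a1 and Fcer1g with macrophages. Their 12 markers summed to 96.0 and 89.8 CPM in WT and 75.9 and 77.0 CPM in Sox17eKO, lower in both Sox17eKO pools. Of 10 tested, Itga2b, the platelet integrin subunit, fell (log2 fold change -0.59, edgeR adjusted p = 0.0243) and 0 rose, and 9 of the 10 had a lower fitted level. At an unadjusted p under 0.05 there were 5 of the 10. Itga2b was no longer called without WT replicate 1 (edgeR adjusted p = 0.108), WT replicate 2 (0.0695) or Sox17eKO replicate 2 (0.131). Vwf and Itgb3, the highest by CPM and both also endothelial, had log2 fold changes of -0.12 and -0.12. Erythroid genes summed to 2513 and 3392 CPM in WT and 1647 and 2220.4 CPM in Sox17eKO, where Hbb-y fell (-0.56, edgeR adjusted p = 0.0288), although near-identical globin copies share reads. That call ended with DESeq2 (adjusted p = 0.0971), with the length trend removed (edgeR 0.215), among protein-coding genes only (0.0528), and without WT replicate 2 (0.284) or Sox17eKO replicate 1 (log2 fold change then -0.38). Endothelial genes summed to 1079.7 and 1103 CPM in WT and 992 and 1090.5 CPM in Sox17eKO, and Tie1 fell (-0.34, edgeR adjusted p = 0.0204), while Tek and Pecam1, the highest, had log2 fold changes of -0.03 and -0.13. Tie1 was no longer called without WT replicate 2 (edgeR adjusted p = 0.225) or Sox17eKO replicate 1 (0.13). The part of platelet RNA in the F13a1 and Fcer1g values was not tested, and the difference between the macrophage sum and these sums was not tested either.

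Markers of the solid tissue also moved between the genotypes, and the genes named here were chosen after their values were seen. The 6 cardiomyocyte genes summed to 22453 and 21331 CPM in WT and 34535 and 35149 CPM in Sox17eKO, higher in both Sox17eKO pools. Ttn, which encodes the sarcomere protein titin, rose (log2 fold change 1.37, edgeR adjusted p = 3.8e-06), and the other 5 genes were not called. Ttn rose in all alternatives run, but its log2 fold change was only 0.69 with the length trend removed. Without Ttn the list summed to 14342 and 14846 CPM in WT and 15144 and 16825 CPM in Sox17eKO. The 4 smooth muscle genes summed to 1859.9 and 1892 CPM in WT and 1704 and 1648 CPM in Sox17eKO, and Cnn1, a calponin of contractile cells, fell (-0.35, edgeR adjusted p = 0.0239). Mesenchymal genes summed to 4197 and 3756 CPM in WT and 4069.6 and 4102 CPM in Sox17eKO, and Pdgfra, a growth factor receptor, rose (0.32, edgeR adjusted p = 0.0401). All 4 epicardial genes had a lower fitted level, with sums of 246 and 265 CPM in WT and 229 and 211 CPM in Sox17eKO, and Upk3b, a mesothelial membrane protein, fell (-0.35, edgeR adjusted p = 0.0142). The calls of Cnn1, Pdgfra and Upk3b were lost without WT replicate 2, at edgeR adjusted p = 0.291, 0.374 and 0.101. Those of Cnn1 and Upk3b were lost without Sox17eKO replicate 2 (0.0763 and 0.116), and that of Pdgfra without Sox17eKO replicate 1 (0.172). With the length trend removed, Cnn1 and Pdgfra were at 0.0728 and 0.285. Pdgfra was at 0.0601 with limma-voom, and without the robust option Cnn1 and Pdgfra were at 0.0507 and 0.0741. The part of these differences in the macrophage sum was not tested.

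**Figure D4:**
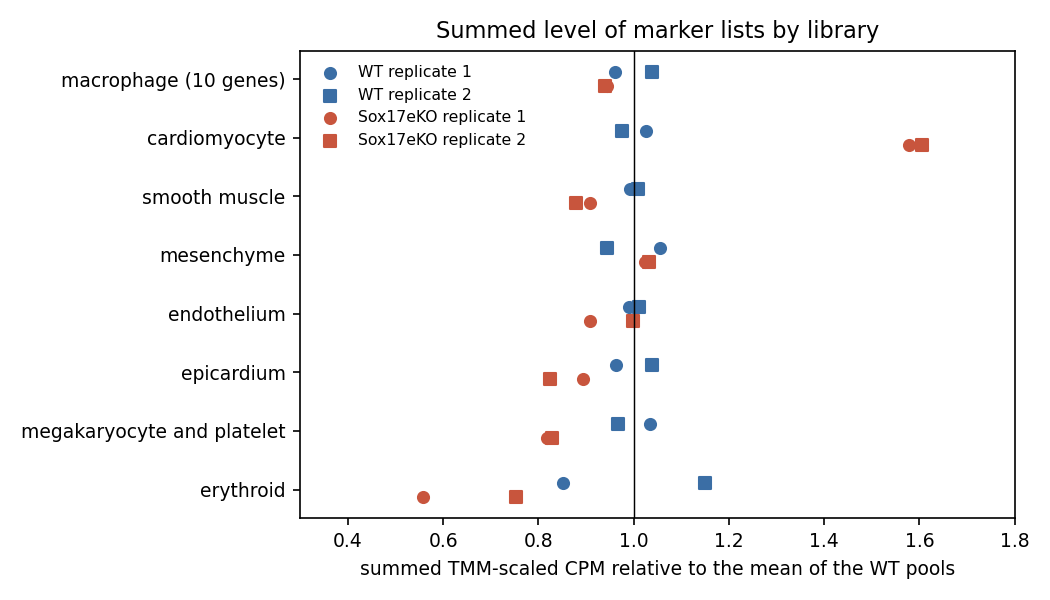
Summed TMM-scaled CPM of the 10 macrophage genes and of 7 marker lists in each library, divided by the mean of the WT pools for the same list (circles, replicate 1; squares, replicate 2). The macrophage sums are 112 and 121 CPM in WT and 110.4 and 109.7 CPM in Sox17eKO. The cardiomyocyte sums are 22453 and 21331 against 34535 and 35149 CPM, and without Ttn 14342 and 14846 against 15144 and 16825 CPM. The platelet sums are 96.0 and 89.8 against 75.9 and 77.0 CPM.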

How the data were processed

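For each of 4 libraries the authors deposited whole-number read counts by Ensembl gene, without normalization. TopHat2, HTSeq and mm10 were used, per the submitters' processing notes, and versions, annotation release and strand setting are not given in the sources used here. Whether reads of overlapping genes on opposite strands were separated is therefore unknown. Libraries were strand-specific, per the labels' protocols. The 5 summary rows of HTSeq entered no test. Of 45706 genes, 45143 matched GENCODE M21 (GRCm38), which gave symbols, positions and exon lengths.

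Genotypes were compared with edgeR 4.0.16 in R 4.3.3 (quasi-likelihood, robust fit, filterByExpr, TMM, genotype as the only term). Intervals are 95%, from the fit, and a standard error is the log2 fold change divided by the root of F. Within a genotype the pools were not 1 library deposited again (chi-square over its degrees of freedom: WT 5.16, Sox17eKO 6.51). The scripts were tested on simulated counts. Alternatives used DESeq2 1.42.0, limma 3.58.1 and mgcv 1.9.3.

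The members and lists were chosen with earlier results of these data known. The rule named all members, Sox17, called genes and the 3 highest genes per kb of each programme list, and the 2 highest of each list of cells that share a member. Of the list symbols, 1 (Ahsp) was not matched.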

Additional observations from a re-analysis of the deposited data

Results flagged for a closer look

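Reads placed outside annotated genes made up 31.8% of uniquely placed reads in Sox17eKO (mean of 34.1% and 29.5%) against 21.3% in WT (22.2% and 20.4%), a signal above the WT level in data that no comparison above uses. Its part in the values of the 10 macrophage genes was not tested.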

How the results depend on the processing

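None of the 10 macrophage genes was called in any of the 14 alternatives, of which DESeq2 gave an adjusted p for 1 gene only. The median log2 fold change of the 10 ran from -0.13 (length trend removed) to 0.01 with the alternatives, and at an unadjusted p under 0.05 Mrc1 alone passed, with a replicate block (0.038), with the length trend removed (0.0138) and without WT replicate 1 (0.0456). The count over all genes, 886, became 1364 with no filter on low counts, 390 with DESeq2, 517 with limma-voom, 1684 with a replicate block and 128 of the protein-coding genes with a trend on exonic length removed. With 1 library left out it ran from 192 (without WT replicate 2) to 1219 (without WT replicate 1). Scaling by library size gave 769 higher and 111 lower, against 684 and 202. The 1 call among the programme genes became 4 with no filter, 0 with DESeq2, 4 with a replicate block, 3 among protein-coding genes only, 0 with the length trend removed and 0 to 2 with 1 library left out. The replicate numbers share no stated litter or day, and same-numbered pools did not deviate together (correlation across genes -0.03), so genotype was the only term of the reported fit. The causes of these differences between settings were not tested. Differences in the genes with few reads, such as Aif1 and Fcer1g, are limited by depth.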

Other observations

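Among neutrophil genes, which are not among the 10 macrophage genes, Mpo and S100a9 had CPM values that did not overlap between the genotypes, higher in Sox17eKO, and neither was called. Over all genes tested, 26.5% had both Sox17eKO pools above both WT pools. Mpo, the myeloperoxidase of granulocyte precursors, had 2 and 2 reads in WT and 19 and 17 in Sox17eKO (log2 fold change 2.33, 95% interval 0.91 to 3.75, edgeR adjusted p = 0.0518). Over the alternatives its adjusted p ran from 0.0295 to 0.329. S100a9, a calcium-binding protein of neutrophils and monocytes, had 0 and 3 reads in WT and 19 and 11 in Sox17eKO and did not pass the filter. Without the filter its edgeR adjusted p was 0.0443. Prtn3, a granule protease, had 6 and 5 reads in WT and 6 and 18 in Sox17eKO, and Elane had 0, 1, 0 and 0. These genes were picked out after their values were seen, and the counts are small. Mpo passed the filter on low counts through its Sox17eKO libraries alone, so its p is not a fair test of a difference.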
